A study of Mus musculus with 21 samples.

Results

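Vehicle-treated E14 mouse embryonic stem cells were compared between day 5 and day 3 of culture, with 3 libraries at each day, which is 6 of the 21 libraries of the series. The members were chosen by their labels: the control libraries of day 5 against the control libraries of day 3. E14 is an embryonic stem cell line derived from the inner cell mass of the mouse blastocyst, and both groups carry the same unmodified genotype as far as the labels say. The vehicle itself is not named, and the sources used here do not give how differentiation was started, if it was. The series also holds untreated cells in standard culture, vehicle at day 7, and cells given the vitamin B6 form pyridoxine (VB6) at 20 µM for 3, 5 or 7 days, and its title links that vitamin to endoderm formation, glycolysis and histone lactylation. The day 3 to day 5 interval in VB6 (3 libraries a day, none shared with vehicle) is used below only to show where the vehicle interval differs.

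Embryonic stem cells keep their undifferentiated state through a network of transcription factors around Pou5f1 (Oct4), Sox2 and Nanog. When that network is released, cells of the culture can pass through an epiblast-like state toward the germ layers, or enter extraembryonic endoderm. Visceral endoderm, the absorptive and secretory epithelium of the early yolk sac, makes many of the plasma proteins later made by liver, such as alpha-fetoprotein, apolipoproteins and transthyretin. Parietal endoderm lies opposite and lays down a thick basement membrane.

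Between day 3 and day 5 in vehicle, 19 of 23 genes for visceral and hepatic secreted proteins rose, by up to a log2 of 7.23, as did 16 of 20 genes of actin stress fibres and smooth muscle. Of core pluripotency genes 18 of 25 fell, of two-cell-like genes 14 of 16, and of nuclear genes of oxidative phosphorylation 69 of 76. These counts are without the GC content and length correction given below. With it fewer genes of oxidative phosphorylation were called lower, and their median change was smaller. Nanog and Otx2 stood apart from Pou5f1 and Sox2 and stayed near their day 3 level. The edgeR quasi-likelihood test called 12305 of 18901 genes (65.1%) at a Benjamini-Hochberg adjusted p under 0.05, 6033 higher at day 5 (31.9% of genes tested) and 6272 lower (33.2%). The call is therefore common among all genes, and the counts of each group below are to be read against these shares. A log2 change of at least 1 was reached by 2228 of the higher and 2389 of the lower genes, and the values of the day 5 and day 3 libraries did not overlap for 13379 genes (70.8%). The median log2 change over all genes tested was −0.01. On the deposited TPM values (scaled per length and library, tested with limma) the median gene shifted by 0.236 and 71.3% of calls were higher, against 49% here, so a group that moves by little is called mostly higher there, and such cases are given beside the group. No label tells if the 3 libraries of a day are separate cultures. The p-values therefore measure the spread between libraries of a group, which may be technical. That spread was estimated over all 21 libraries of the series and not over the vehicle libraries alone. In such bulk samples, fewer cells of a type and less RNA per cell cannot be told apart.

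The day 5 vehicle libraries differed from day 3 in more than time. Their implied fragment length, derived from the deposited values, was 221.5 to 238.0 nt against 308.2 to 315.7 nt at day 3, while the VB6 libraries of days 3 and 5 lay between 306.9 and 316 nt. The counted genes had a mean GC content of 47.9 to 48.2% at day 5 and 49.2 to 49.5% at day 3. Ribosomal protein genes took 3.45 to 3.75% of counts against 6.13 to 6.70%, and mitochondrial protein-coding genes 3.95 to 4.33% against 2.27 to 2.49%. None of these ranges overlapped, and an exact two-sided permutation test of 3 against 3 libraries gave p = 0.1 for each, the smallest p it allows. Totals were alike, at 17211701 to 19554075 expected counts per vehicle library.

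These differences reached the gene values. With genes put in 10 equal bins by GC content, the median vehicle log2 change was 0.497 in the lowest bin and −0.577 in the highest. The VB6 interval ran the other way, from −0.248 to 0.333. Over effective length, the length a fragment can start in, the vehicle median went from −0.466 in the shortest of 10 bins to 0.353 in the longest. A second fit therefore entered, for each library, an offset from a smooth trend on GC content and length, which could be made for 17347 genes, and values from it are called corrected. After correction the medians of the GC bins lay between −0.072 and 0.052. The trend was fitted to these same values, so flat medians follow from the fit and do not test it. Fragment length and day cannot be told apart in vehicle, so the offset may also take out changes that belong to the day. The corrected fit called 5452 genes higher (31.4%) and 5748 lower (33.1%), and its log2 changes correlated with the uncorrected ones at r = 0.95 across genes, a description only. Both fits called 4304 genes higher (24.8%) and 4518 lower (26%).

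**Figure D1:**
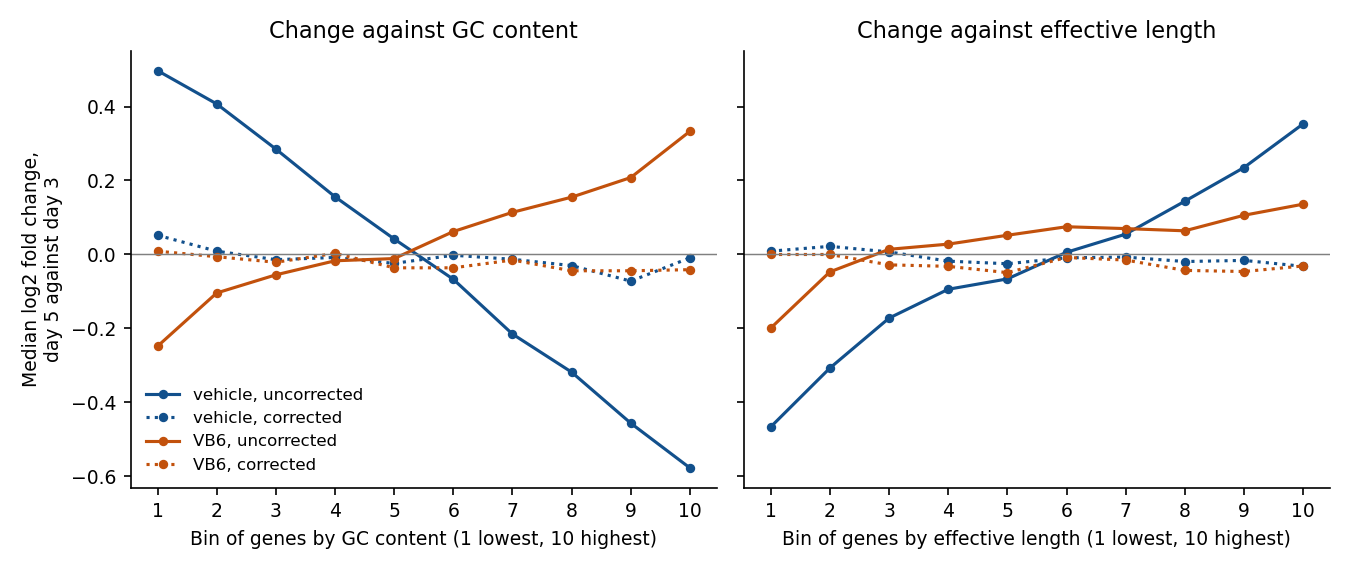
Median log2 fold change of day 5 against day 3 in each of 10 equal bins of genes by GC content (left) and by effective length (right), for vehicle (blue) and VB6 (orange), without correction (solid) and with it (dotted). The uncorrected vehicle line falls with GC content from 0.497 to −0.577 and rises with length. The corrected lines stay near 0, which follows from fitting the trend to these same values.

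The group with the highest median was that of visceral and hepatic secreted proteins. Of its 23 genes tested (27 listed), 19 were called higher and 1 lower, with a median log2 change of 2.70, against −0.01 for all genes. With correction 20 were higher and 1 lower, and the median was 3.12. Afp, which encodes alpha-fetoprotein, the main plasma protein of the yolk sac and fetal liver, had 1.18, 0.421 and 1.16 CPM (counts scaled to the library total) at day 3 and 164, 130 and 127 CPM at day 5. All day 5 libraries were above all day 3 libraries, and the log2 change was 7.23 ± 0.25 (SE) uncorrected and 6.97 corrected. Apoa1, the main protein of high-density lipoprotein, went from 1.35, 0.782 and 0.790 CPM to 42.9, 36.2 and 38.9 CPM (5.33 ± 0.17, corrected 5.94). Apoc2, the activator of lipoprotein lipase, went from 0.294, 0.421 and 0.368 CPM to 17.3, 16.3 and 14.7 CPM (5.45 ± 0.33, corrected 6.24). Neither gene's groups overlapped. Fgb, the beta chain of fibrinogen, held 2, 3 and 3 counts at day 3, at or under the floor of 3 counts, and 150, 127 and 116 counts at day 5. The ratio of its summed CPM was 48.1, with a 95% exact interval of 24.2 to 112 that covers counting error only.

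The promoters of these genes are shown because they carry the largest rises of the group. They are the 250 bases before each start site, from RefSeq on GRCm38.p6 (the mm10 build), 5′ to 3′ on the gene's strand, in lower case with capitals for exact matches to short words. The words were searched on both strands. Those of liver and endoderm factors were GTTAAT, which forms part of the HNF1 site, CAAAGTCCA and CAAAGTTCA for HNF4, TGTTTAC for the forkhead factors of the FOXA family and AGATAA for the zinc finger factors of the GATA family. For pluripotency factors ACAAT, the core bound by SOX proteins, and the octamer ATGCAAAT were searched, and for general promoter elements TATAAA, the TATA box, and also CCAAT, the box of that name. Afp lies at chr5:90490464-90490713 on the plus strand, Apoc2 at chr7:19677942-19678191 on the minus strand, Apoa1 at chr9:46228380-46228629 on the plus strand and Fgb at chr3:83049864-83050113 on the minus strand.
Afp: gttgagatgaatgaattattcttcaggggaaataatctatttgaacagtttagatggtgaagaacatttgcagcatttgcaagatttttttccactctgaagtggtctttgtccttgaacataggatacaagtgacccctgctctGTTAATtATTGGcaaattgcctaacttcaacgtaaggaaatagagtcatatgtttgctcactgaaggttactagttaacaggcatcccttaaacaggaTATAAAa
Apoc2: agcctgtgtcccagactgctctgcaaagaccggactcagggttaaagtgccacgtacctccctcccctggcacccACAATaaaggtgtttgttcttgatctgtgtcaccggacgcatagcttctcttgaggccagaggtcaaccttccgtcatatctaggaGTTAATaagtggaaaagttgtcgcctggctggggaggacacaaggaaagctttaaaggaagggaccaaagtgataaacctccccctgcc
Apoa1: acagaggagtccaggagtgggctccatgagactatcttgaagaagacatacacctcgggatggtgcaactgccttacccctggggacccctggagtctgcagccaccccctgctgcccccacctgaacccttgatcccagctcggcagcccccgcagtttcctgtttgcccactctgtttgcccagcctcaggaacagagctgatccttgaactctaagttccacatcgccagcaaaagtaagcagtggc
Fgb: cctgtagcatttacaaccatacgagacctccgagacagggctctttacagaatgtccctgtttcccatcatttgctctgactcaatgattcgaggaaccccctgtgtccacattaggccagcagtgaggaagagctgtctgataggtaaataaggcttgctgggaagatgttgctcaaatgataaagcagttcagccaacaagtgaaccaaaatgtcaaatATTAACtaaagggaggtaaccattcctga

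GTTAAT stood in 3 of these 4 promoters: in Afp at position −105 counted back from the start site, in Apoc2 at −89, and in Fgb on the opposite strand at −29. In Afp it is followed by a CCAAT box on the opposite strand at −98, and a TATA word begins at −7. Positions count from the RefSeq start. It lies 23 bases before the gene start of the GENCODE annotation for Afp, 50 bases after it for Apoa1, and at it for Apoc2 and Fgb. Apoc2 also holds ACAAT at −175, and no word was found in this window of Apoa1. Of the 19 members called higher, 15 were in the promoter table, and 4 of those (Afp, Apoc2, Fga and Fgb) held GTTAAT before at least 1 of their starts. Cpn1, the member that fell, held it too, as did Nanog and Mycn among the called core pluripotency genes. GTTAAT was held by 6.43% of all 32851 promoters listed, TATAAA by 12.4%, CCAAT by 33.8% and ACAAT by 27.7%. These shares are per promoter, whereas list members were counted per gene over any of its starts, so the measures are not alike. A match is a description of letters and not a binding site.

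Other secreted proteins rose from higher levels. Apob, the scaffold of very low density lipoprotein, went from 80.7, 66.2 and 83.6 CPM to 1090, 971 and 870 CPM, without overlap (3.67 ± 0.11, corrected 3.12). Mttp, which loads lipid onto it, went from 28.3, 29.2 and 31 CPM to 126, 119 and 107 CPM (1.99 ± 0.09). Rbp4, the plasma carrier of retinol, rose by 4.19 ± 0.28 and Apoa4 by 3.37 ± 0.16. Ttr, transthyretin, which carries thyroid hormone and Rbp4, went from 11.4, 7.71 and 8.84 CPM to 37.4, 34.4 and 36.7 CPM (1.96 ± 0.12, corrected 2.0). The lowest value of the group was that of Cpn1, a carboxypeptidase of plasma, which fell by 1.37 ± 0.18 on the log2 scale. Each of these genes had the same call in both fits.

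**Figure D2:**
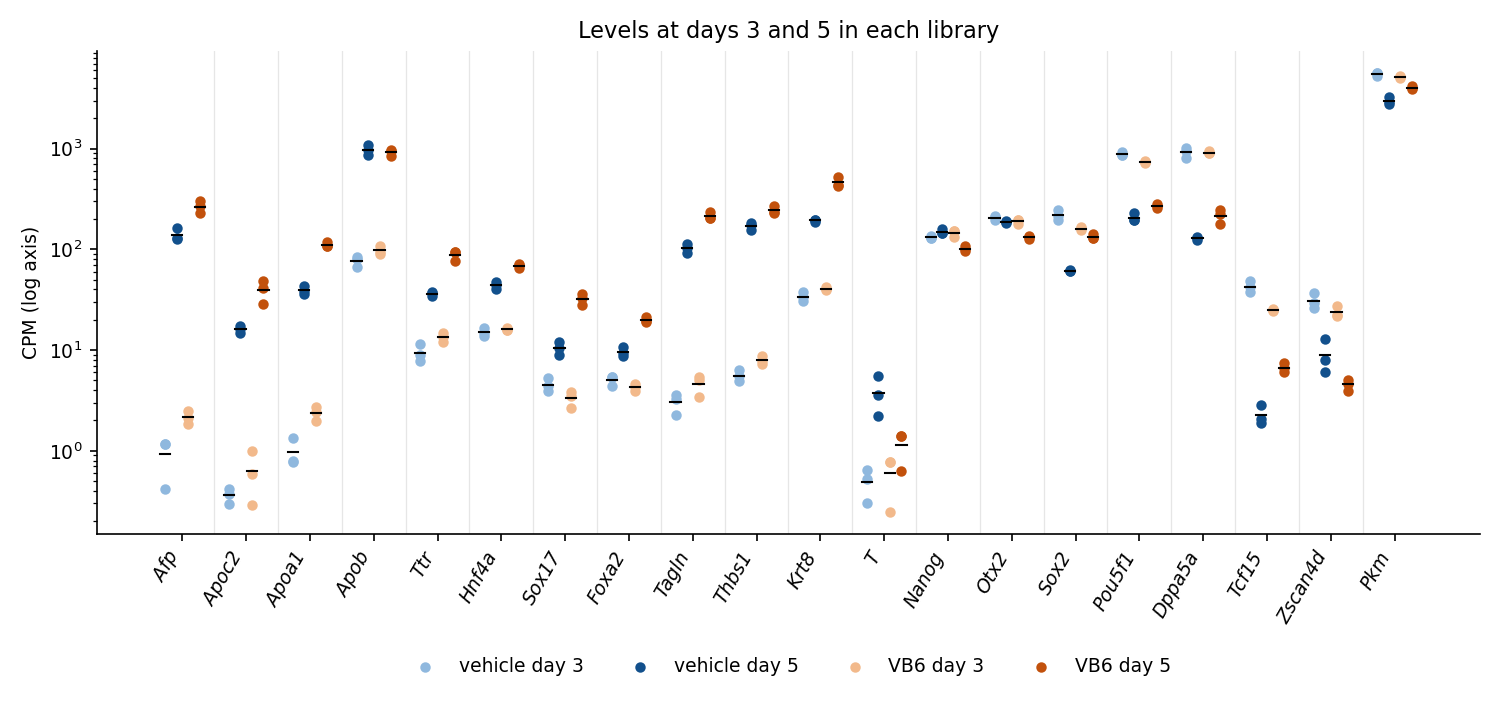
Level of 20 genes in CPM (log axis) in each library of vehicle (blue) and VB6 (orange) at day 3 (light) and day 5 (dark); points are libraries and black bars their means. Afp, Apoc2 and Apoa1 rise in both arms, Pou5f1, Dppa5a and Tcf15 fall, and Sox2 falls from 195 to 244 CPM to about 61 CPM in vehicle with a smaller step in VB6.

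Visceral endoderm takes up maternal proteins through a set of surface receptors and adaptors, and 12 of those 18 genes rose and 3 fell (median 0.96, corrected 0.87). Slc39a8, a zinc and manganese transporter, went from 8.48, 7.22 and 9.95 CPM to 64.9, 71.6 and 61.1 CPM (2.94 ± 0.11). Dab2, an endocytic adaptor, rose from 216 to 233 CPM over the day 3 libraries to 716 to 845 CPM (1.80 ± 0.07), and Cubn, the cubilin receptor, from 377 to 454 CPM to 878 to 1169 CPM (1.27 ± 0.11, corrected 0.64). Enpep, a surface aminopeptidase, had the largest change of the group at 3.44 ± 0.24.

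Changes in the endoderm transcription factors were smaller than those in the secreted proteins. Of 23 tested (26 listed), 11 rose and 5 fell, with a median of 0.29 (corrected 0.38, 11 higher and 2 lower). Without replicate 2 of either day 3 were called lower. Hnf4a, a nuclear receptor that drives hepatic and visceral endoderm genes, went from 13.7, 14.8 and 16.5 CPM to 47.1, 40.6 and 44.6 CPM (1.56 ± 0.08, corrected 1.72). Gata4 rose by 1.14 ± 0.09 (corrected 1.39) and its relative Gata6 by 0.54 ± 0.12 (corrected 0.95). Both are zinc finger factors of primitive endoderm. Sox17, an HMG-box factor of endoderm, went from 3.94, 4.39 and 5.26 CPM to 11.9, 10.5 and 8.95 CPM, without overlap (1.20 ± 0.15, corrected 1.77). Foxa2, a forkhead factor of endoderm, had 4.42, 5.36 and 5.37 CPM and then 9.29, 10.7 and 8.73 CPM (0.92 ± 0.14, corrected 1.42). Klf6, a zinc finger factor, had the largest rise at 2.27 ± 0.08, and Nr5a2, a nuclear receptor also active in pluripotent cells, the largest fall (−1.78 ± 0.15).

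Anterior visceral endoderm genes gave no common direction: 5 of 14 rose and 1 fell, with a median of −0.03, and 4 rose and 4 fell with correction. Without single libraries the counts ran from 3 to 5 higher and 1 to 3 lower. Amot, a Hippo pathway scaffold, rose by 1.53 ± 0.07, Sfrp5 by 0.94 ± 0.20 (corrected 1.49) and Sfrp1 by 0.46 ± 0.08 (corrected 0.31). Cer1 had the highest change of the list, at 0.294, 0.120 and 0.105 CPM and then 0.432, 0.518 and 0.616 CPM. Its day 3 values lay near the floor. Its change was 1.57 ± 0.67 (adjusted p = 0.0445), and the call was lost with correction (1.48, adjusted p = 0.0504). Lefty1, a secreted Nodal antagonist, went from 77.8, 104 and 93.4 CPM to 13.4, 15.8 and 18.1 CPM (−2.54 ± 0.13, corrected −1.78), well below the day 3 range.

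Of 25 parietal endoderm and basement membrane genes, 16 rose and 1 fell (median 0.51, corrected 0.73 with 17 higher and 1 lower). Sparc, a matrix glycoprotein, went from 211, 236 and 242 CPM to 468, 437 and 414 CPM (0.94 ± 0.07). Pth1r, the parathyroid hormone receptor of parietal endoderm, rose by 1.45 ± 0.12, Pdgfra, a receptor of primitive endoderm, by 1.46 ± 0.11, and the heparan sulfate proteoglycan Agrn by 1.11 ± 0.07. Col18a1, a basement membrane collagen, was the member that fell, from 464, 580 and 551 CPM to 187, 184 and 214 CPM (−1.45 ± 0.12).

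Of 20 genes of actin stress fibres and smooth muscle, 16 rose and 0 fell (median 0.88). With correction 18 rose and the median was 1.20. Acta2, smooth muscle actin, held 1, 3 and 4 counts at day 3 and 217, 250 and 266 counts at day 5. The ratio of its summed CPM was 89.7, with an exact 95% counting interval of 45.3 to 208. Acta1, skeletal actin, had 14 counts over the 3 day 3 libraries and 804 at day 5, a ratio of 56.2 (interval 33.3 to 103). The abundant members moved as well. Tpm1, a tropomyosin, went from 88.1, 89.4 and 92.4 CPM to 556, 609 and 648 CPM (2.75 ± 0.06, corrected 2.91). Tagln, an actin-binding protein of contractile cells, went from 3.24, 3.55 and 2.26 CPM to 92.9, 103 and 112 CPM (5.10 ± 0.15), though 62.2% of its transcript words of 31 bases are shared with other annotated genes. Synpo2l, a Z-disc protein, rose by 4.78 ± 0.28.

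The secreted matricellular proteins Thbs1, Ccn1 and Ccn2, known targets of mechanical and YAP signalling, were among the strongest rises at moderate levels. Thbs1, thrombospondin, went from 5.53, 4.88 and 6.32 CPM to 157, 176 and 183 CPM (4.94 ± 0.11, corrected 4.71). Ccn1 went from 8.48, 11 and 10.2 CPM to 179, 184 and 202 CPM (4.25 ± 0.09, corrected 4.43). Ccn2 rose by 2.61 ± 0.08. Their groups did not overlap. The list that holds them, fibrillar collagens and matricellular genes, had 8 of 23 higher and 5 lower (median 0.17), and Fn1, fibronectin, fell from 451, 518 and 503 CPM to 269, 259 and 260 CPM (−0.90 ± 0.07). Tgfb2, a secreted growth factor, rose from 0.294, 0.241 and 0.211 CPM to 7.24, 7.26 and 7.72 CPM (4.87 ± 0.27).

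Of 22 epithelial genes, 15 rose and 4 fell (median 0.80, corrected 0.71). Krt8, a keratin of simple epithelia, went from 30.6, 33.7 and 37.3 CPM to 196, 196 and 188 CPM (2.51 ± 0.10, corrected 2.90). Krt19 rose by 2.22 ± 0.13 and Dsp, desmoplakin, by 2.31 ± 0.10, while Grhl2, a transcription factor of epithelial junctions, fell by 1.22 ± 0.08 on the log2 scale. The summed level of trophoblast markers was 372.8 to 380.9 CPM at day 3 and 1215 to 1534 CPM at day 5. Of that sum at day 5, 80.9% came from Peg10, an imprinted retrotransposon-derived gene, and 13.9% from Krt8, which is also in the epithelial list. The rise of the sum is thus mainly that of these genes, and the sum does not show how the other members moved. Plac1 had the highest change of the list and Ascl2 the lowest. Plac1 had 0.0589, 0 and 0 CPM at day 3, under the floor of 3 counts, and 1.35, 0.864 and 0.504 CPM at day 5. Eomes had 28.4, 31.1 and 34.7 CPM and then 41.3, 41.2 and 40.7 CPM, while Ascl2 fell from 10.6, 8.49 and 9.90 CPM to 3.02, 3.11 and 2.85 CPM. The placental hormone gene Prl3d1 and the spongiotrophoblast gene Tpbpa had no count at either day. Blood and endothelium markers summed to 55.02 to 58.53 CPM at day 3 and 51.25 to 55.89 CPM at day 5. The embryonic globins Hbb-bh1 and Hbb-y were at 0 in both. Of 14 tested, 2 rose and 9 fell, among the latter Pecam1, an endothelial adhesion molecule also made by stem cells (−1.73 ± 0.10). Flt1 had the highest change of the list and rose from a mean of 9.714 CPM to 28.75 CPM, without overlap (1.56, corrected 1.29). Its share of the mean sum was 17% at day 3 and 54.3% at day 5, while that of Pecam1 was 33.6% and then 10.9%. The similar sums thus do not show how the members moved. Cardiac muscle markers summed to 47.33 to 57.85 CPM and then 28.85 to 32.57 CPM, but members moved both ways. Of 15 tested, 5 rose and 7 fell (median −0.36), and with correction 6 rose and 6 fell (median 0.07). Ttn and Myh6 fell, from means of 13.86 and 16.62 CPM to 3.876 and 5.89 CPM. Actc1 rose from a mean of 0.4186 CPM to 4.999 CPM (3.56, corrected 3.97). Tnnc1, whose day 3 values lay near the floor, rose by 4.33 (corrected 4.93). The part of other cell types in the results was not tested.

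Of the genes of primitive streak and mesendoderm, 16 were tested, of which 8 were called higher and 2 lower (median 0.36), and with correction 11 rose and 1 fell (median 0.73). T, brachyury, the streak transcription factor, had 0.647, 0.301 and 0.526 CPM at day 3 and 3.62, 5.47 and 2.24 CPM at day 5 (2.91 ± 0.46, corrected 3.25). Mixl1, a homeobox factor of the streak, went from 0.589, 0.482 and 0.842 CPM to 3.56, 3.63 and 3.58 CPM (2.47 ± 0.30, corrected 2.36). Neither gene's groups overlapped, and both stayed at a few CPM. Eomes, a T-box factor, rose by 0.39 ± 0.12 (adjusted p = 0.0059) and Cyp26a1, which degrades retinoic acid, by 1.29 ± 0.11, while Nodal, the ligand that induces the streak, fell by 1.20 ± 0.10 on the log2 scale. Of 16 definitive endoderm genes, 8 rose and 1 fell (median 0.81), and of 19 mesoderm regulators 4 rose and 5 fell (median −0.07, with 5 higher and 3 lower on the TPM scale). Of 24 neural ectoderm genes, 6 rose and 11 fell (median −0.50, with 8 higher and 7 lower on the TPM scale), from Nes, nestin, at 1.94 ± 0.11 to En2, a midbrain homeobox gene, at −3.04 ± 0.22. Their summed level did not separate the days, at 399 to 445.6 CPM and 439.8 to 456.2 CPM.

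**Figure D3:**
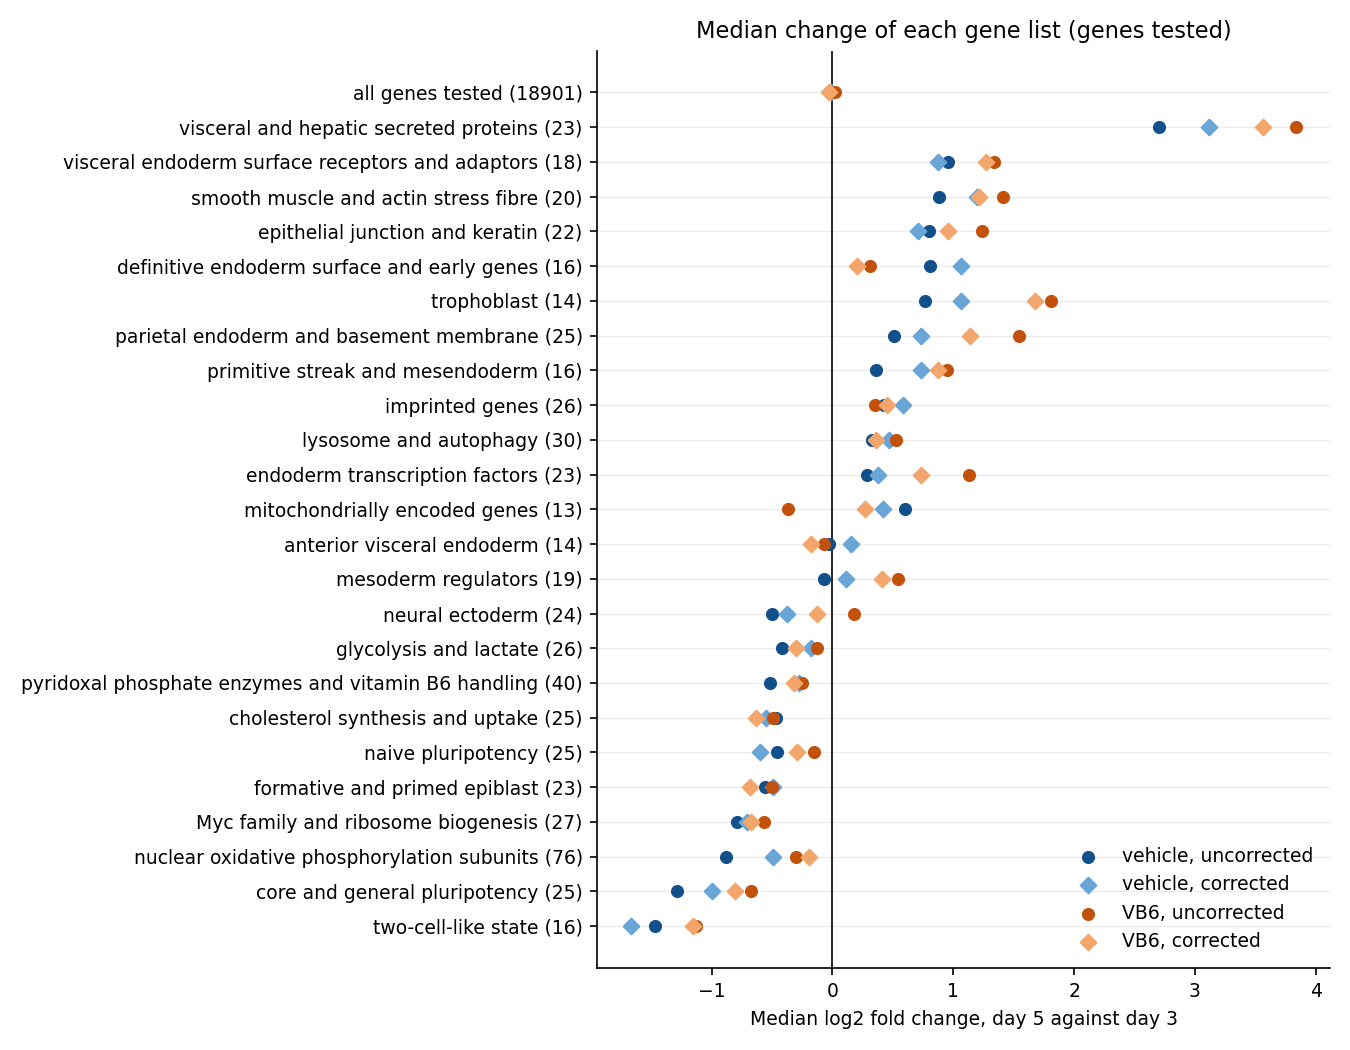
Median log2 fold change of day 5 against day 3 for each gene list, with the number of genes tested in brackets, in vehicle (blue) and VB6 (orange), uncorrected (circles) and corrected (diamonds). In vehicle the secreted proteins sit at 2.70 and core pluripotency at −1.29, while all genes tested sit at −0.01.

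Of 25 core and general pluripotency genes, 18 fell and 4 rose, with a median of −1.29. With correction 19 fell and 3 rose (median −1.0). Pou5f1, the POU factor Oct4, went from 858, 933 and 859 CPM to 198, 195 and 228 CPM (−2.09 ± 0.08, corrected −1.66). Sox2, its HMG-box partner, went from 195, 244 and 213 CPM to 62.5, 60.5 and 61.4 CPM (−1.82 ± 0.11, corrected −1.79). Both left their day 3 range completely. The promoter of Pou5f1 is shown as the counterpart of the rising genes, at chr17:35505782-35506031 on the plus strand of the same build, with the same words in capitals.
Pou5f1: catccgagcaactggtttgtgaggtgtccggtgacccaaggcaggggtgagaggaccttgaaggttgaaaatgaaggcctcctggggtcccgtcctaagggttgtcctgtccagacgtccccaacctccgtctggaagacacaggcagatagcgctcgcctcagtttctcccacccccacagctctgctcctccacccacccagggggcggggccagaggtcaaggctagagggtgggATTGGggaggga

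This window holds a CCAAT box on the opposite strand at −12 and none of the other words, while ACAAT stands before another listed start of Pou5f1. The RefSeq start used here lies 14 bases after the GENCODE gene start. Dppa5a, an RNA-binding protein with a KH domain, went from 1003, 941 and 813 CPM to 123, 129 and 133 CPM (−2.84 ± 0.14, corrected −2.37), and the SAP domain proteins Dppa2 and Dppa4 fell by 2.38 ± 0.11 and 1.83 ± 0.07 on the log2 scale. The Nodal pathway genes Cripto, a co-receptor (−1.75 ± 0.07), Gdf3, a ligand (−1.84 ± 0.11), and Lefty2, an antagonist (−1.91 ± 0.10), fell with them.

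Nanog did not follow its partners. It had 129, 129 and 136 CPM at day 3 and 147, 159 and 145 CPM at day 5. All day 5 values were higher, by 0.19 ± 0.08 (adjusted p = 0.0411), and the corrected value was −0.05 (adjusted p = 0.581), so its direction depended on the correction. The uncorrected call was also lost without replicate 1 or 2 of day 3 or without replicate 1 or 2 of day 5 (0.15 to 0.21, adjusted p from 0.0564 to 0.161). Lin28a, an RNA-binding protein that blocks let-7 maturation, rose from 290, 282 and 264 CPM to 440, 437 and 446 CPM (0.66 ± 0.05, corrected 0.82).

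Of 25 naive pluripotency genes, 15 fell and 6 rose (median −0.46). Zfp42 (Rex1) went from 53.5, 61.1 and 54.6 CPM to 22.5, 17.9 and 17.6 CPM (−1.54 ± 0.09, corrected −1.70), and Esrrb, an orphan nuclear receptor, fell by 1.63 ± 0.09 on the log2 scale. Nr0b1, a nuclear receptor that represses transcription, was the lowest of the group at −3.36 ± 0.18, from 17.4, 19.9 and 15.1 CPM to 1.57, 1.78 and 1.74 CPM. Klf2, a Kruppel-like factor, fell by 2.47 ± 0.19, and Fgf4, the ligand that primes differentiation, by 2.49 ± 0.08.

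Formative and primed epiblast genes fell as well, in 17 of 23, while 3 rose (median −0.56). Tcf15, a basic helix-loop-helix factor of the transition out of the naive state, went from 42.0, 48.0 and 38.1 CPM to 2.05, 1.90 and 2.85 CPM (−4.23 ± 0.14, corrected −3.07). Fgf15 fell by 2.77 ± 0.13. Among epiblast markers, Fgf5 rose from 92.3, 92.8 and 91.7 CPM to 134, 141 and 137 CPM (0.57 ± 0.08), and Otx2, a homeobox factor, had 195, 213 and 211 CPM and then 191, 184 and 188 CPM (−0.13 ± 0.06, adjusted p = 0.0749, corrected −0.12 with adjusted p = 0.0457). Of 18 DNA methylation enzymes, 10 fell and 4 rose. The de novo methyltransferase Dnmt3a fell from 484, 551 and 490 CPM to 134, 136 and 149 CPM (−1.86 ± 0.06), and its cofactor Dnmt3l from 388, 430 and 382 CPM to 67.6, 66.1 and 73.6 CPM (−2.53 ± 0.07).

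Of 16 genes of the two-cell-like state, a rare state of stem cell cultures that resembles the early cleavage embryo, 14 fell and 1 rose (median −1.47, corrected −1.67 with 15 lower). Zscan4d, a telomere factor, went from 36.5, 29.2 and 26.1 CPM to 12.9, 8.0 and 6.04 CPM (−1.76 ± 0.21), and Zscan4f, a close copy, from 102, 85.0 and 80.0 CPM to 37.2, 25.8 and 19.5 CPM. Members of this cluster are similar in sequence, so how reads were divided among them is uncertain. Duxf3, the factor that opens this program, fell from 1.47, 1.45 and 2.11 CPM to 0.486, 0.230 and 0.224 CPM (−2.39 ± 0.43).

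Of 26 imprinted genes, 16 rose and 7 fell (median 0.43). Igf2, a fetal growth factor, went from 22.4, 22.4 and 25.9 CPM to 168, 139 and 138 CPM (2.65 ± 0.11), and the noncoding H19 beside it rose by 1.86 ± 0.07. Peg10 went from 290, 289 and 270 CPM to 1264, 1152 and 958 CPM (1.99 ± 0.08). Dlk1, a Notch pathway ligand, was the lowest at −1.92 ± 0.21, and the cell cycle inhibitor Cdkn1c fell by 1.82 ± 0.10. Among let-7 and Lin28 pathway genes 10 of 15 rose and 2 fell, and with correction 7 rose and 4 fell. Hmga2, a chromatin protein repressed by let-7, rose by 1.60 ± 0.10 and Igf2bp3, an RNA-binding protein, by 0.99 ± 0.07, while Hmga1 fell by 1.14 ± 0.11 and by 0.20 corrected.

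Of 26 glycolysis and lactate genes 7 rose and 18 fell (median −0.42), and with correction 8 rose and 14 fell (median −0.18), while on the TPM scale 9 were higher and 5 lower. Pkm, pyruvate kinase, went from 5281, 5578 and 5672 CPM to 2783, 2925 and 3272 CPM (−0.88 ± 0.06, corrected −0.64). Ldha, lactate dehydrogenase, went from 2332, 2220 and 2288 CPM to 1459, 1540 and 1626 CPM (−0.56 ± 0.05, corrected −0.34). On the TPM scale Ldha stood at 0.33 instead (adjusted p = 7.33e-05 in limma). The glucose transporter Slc2a3 rose from 1446, 1319 and 1547 CPM to 3544, 3642 and 3600 CPM (1.32 ± 0.06), and the lactate carrier Slc16a1 by 1.82 ± 0.07 (corrected 1.27).

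Of 76 nuclear genes for subunits of oxidative phosphorylation, 69 fell and 2 rose (median −0.88). With correction 54 fell and 4 rose, and the median was −0.49. Cox6a1, a subunit of cytochrome oxidase, went from 146, 138 and 132 CPM to 41.3, 40.0 and 43.5 CPM, and its log2 change of −1.74 ± 0.08 became −0.67 with correction. Cycs, cytochrome c, whose transcripts are poor in GC, went from 86.2, 83.0 and 76.8 CPM to 21.4, 20.0 and 24.1 CPM, and its change moved the other way, from −1.91 ± 0.17 to −2.35. Of 13 mitochondrially encoded genes, 9 rose and 2 fell (median 0.60, corrected 0.42). The gene mt-Co1, a core subunit of cytochrome oxidase, went from 14322, 12852 and 13152 CPM to 27217, 27661 and 25200 CPM (0.99 ± 0.09, corrected 0.70), whereas mt-Atp6, a subunit of ATP synthase, fell by 0.94 ± 0.32 on the log2 scale. That call for mt-Atp6 was lost without replicate 1 of day 3 (−0.83, adjusted p = 0.0549) and without replicate 3 of day 5 (−0.72, adjusted p = 0.0769). Of 30 citric acid cycle genes 6 rose and 15 fell (median −0.11), but on the TPM scale 20 were higher and 6 lower.

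Of 25 cholesterol synthesis and uptake genes, 20 fell and 1 rose (median −0.47), and the corrected fit called 23 lower (median −0.55). Fdps, which makes farnesyl pyrophosphate, went from 233, 214 and 234 CPM to 78.3, 90.3 and 107 CPM (−1.30 ± 0.08). Of 22 serine, glycine and folate genes, 15 fell and 1 rose (median −0.72), with Shmt2, the mitochondrial serine hydroxymethyltransferase, at −1.46 ± 0.10. Of 40 enzymes that use pyridoxal phosphate, the active form of vitamin B6, or handle the vitamin, 25 fell and 10 rose (median −0.52, corrected −0.28), and on the TPM scale 14 were lower and 14 higher. Pdxk, the kinase that activates pyridoxine, went from 36.6, 39.1 and 41.0 CPM to 23.3, 20.4 and 24.3 CPM (−0.78 ± 0.08, corrected −0.78). Bcat1, a branched-chain aminotransferase, was the lowest at −1.64 ± 0.08, and Gad1, glutamate decarboxylase, the highest at 1.60 ± 0.27. Of 17 histone lactylation writers and erasers, 5 rose and 8 fell (median −0.10), with 8 higher and 5 lower on the TPM scale.

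Of 27 genes of the Myc family and ribosome biogenesis, 24 fell and 1 rose (median −0.79, corrected −0.71). Myc itself went from 36.0, 42.9 and 36.2 CPM to 13.7, 12.3 and 13.0 CPM (−1.56 ± 0.13), and Nhp2 and Fbl, which modify ribosomal RNA, fell by 1.25 ± 0.06 and 1.19 ± 0.07 on the log2 scale. Of 38 cell cycle genes, 21 fell and 10 rose (median −0.29) on the count scale, whereas on the TPM scale 19 were higher and 11 lower. The replication helicase subunit Mcm5 stood at −1.13 ± 0.06 in counts. Of 21 p53 targets, 14 rose and 7 fell (median 0.55). Perp, a desmosomal p53 target, rose by 2.28 ± 0.10, Cdkn1a, the cell cycle inhibitor p21, by 0.32 ± 0.07 (corrected 0.55), and Bax, a cell death effector, fell by 1.55 ± 0.07 (corrected −0.75). Of 30 lysosome and autophagy genes, 20 rose and 6 fell (median 0.33). Ctsh and Ctsc, lysosomal proteases, went from 29.9 to 34.5 CPM to 136 to 156 CPM, and from 54.0 to 64.6 CPM to 226 to 263 CPM.

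The signalling groups shared no direction with one another, though BMP genes had a median above 0 and Wnt targets one below 0. Of 24 FGF and ERK feedback genes, 9 rose and 9 fell (median 0.12; 14 higher and 7 lower on the TPM scale). Nodal and activin had 8 of 20 higher and 9 lower (median −0.19). BMP ligands and targets had 10 of 25 higher and 7 lower (median 0.54), and Wnt targets 6 of 26 higher and 13 lower (median −0.31; 9 higher and 5 lower on the TPM scale). Of 52 Hox genes only 16 passed the filter on low counts, of which 1 rose and 8 fell.

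Beyond the lists, the strongest falls among genes that both fits called, with at least 5 CPM at day 3, included Kirrel2, a surface immunoglobulin, from 17.3, 21.5 and 19.4 CPM to 1.30, 1.09 and 1.85 CPM (−3.77 ± 0.19). Capn3, a calcium-dependent protease, fell by 3.64 ± 0.23, Accsl, an ACC synthase-like gene, by 3.41 ± 0.25, Enox1, a surface oxidase, by 3.25 ± 0.32, and Spn, the sialophorin CD43, by 3.24 ± 0.33. Aoah, a hydrolase that inactivates endotoxin, held 342 counts over the day 3 libraries and 34 at day 5, a ratio of day 3 to day 5 of 10.3 (exact 95% counting interval 7.22 to 15.1). All of these were named by their rank and not by function.

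Some calls turned over with the correction. The fits called 434 genes in opposite directions (2.5% of those with both properties), 2352 genes lost their call and 1944 gained one. The opposite calls of the largest size were H1f10, a linker histone with a GC content of 71.3%, at −0.85 ± 0.15 and then 0.54, Ypel3, a growth regulator, at −0.44 ± 0.08 and then 0.52, and Pgls, an enzyme of the pentose phosphate path, at −0.55 ± 0.08 and then 0.46. Csf2ra, a cytokine receptor chain, changed from −0.53 to 0.49, Dpm3, a mannosyltransferase subunit, from −0.45 to 0.41, and mt-Atp8, whose GC content is 31.9%, from 0.39 to −0.44. No direction is given for these 6 genes. The uncorrected calls for Dpm3 and mt-Atp8 were also lost without single libraries (Dpm3 at −0.24 to −0.47 without any replicate of day 3 or replicate 1 of day 5, mt-Atp8 at 0.20 to 0.42 without any replicate of day 3 or replicate 1 or 2 of day 5).

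The same interval in VB6 gave 10591 called genes (56%), and 10283 with correction (59.3%). The log2 changes of the vehicle and VB6 intervals correlated at r = 0.53 uncorrected, across 18901 genes. With correction r was 0.62, across 17347 genes, so the values rest on different gene sets. Both are a description over genes that are not independent. Of the 8822 genes called in 1 direction by both fits in vehicle, 5286 (59.9%) were called in that direction by both fits in VB6, which is 62.5% of the 8457 such genes of VB6, and 222 were called in the opposite direction. The difference between the intervals, tested as an interaction, was called for 9025 genes (47.7%), and for 5180 (29.9%) with correction, of which 747 differed by a log2 of at least 1. Over all genes the difference was called lower in vehicle for 26.9% and higher for 20.9%, and with correction for 15.6% and 14.3%. The interaction count thus fell by over 1.5 times with correction.

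**Figure D4:**
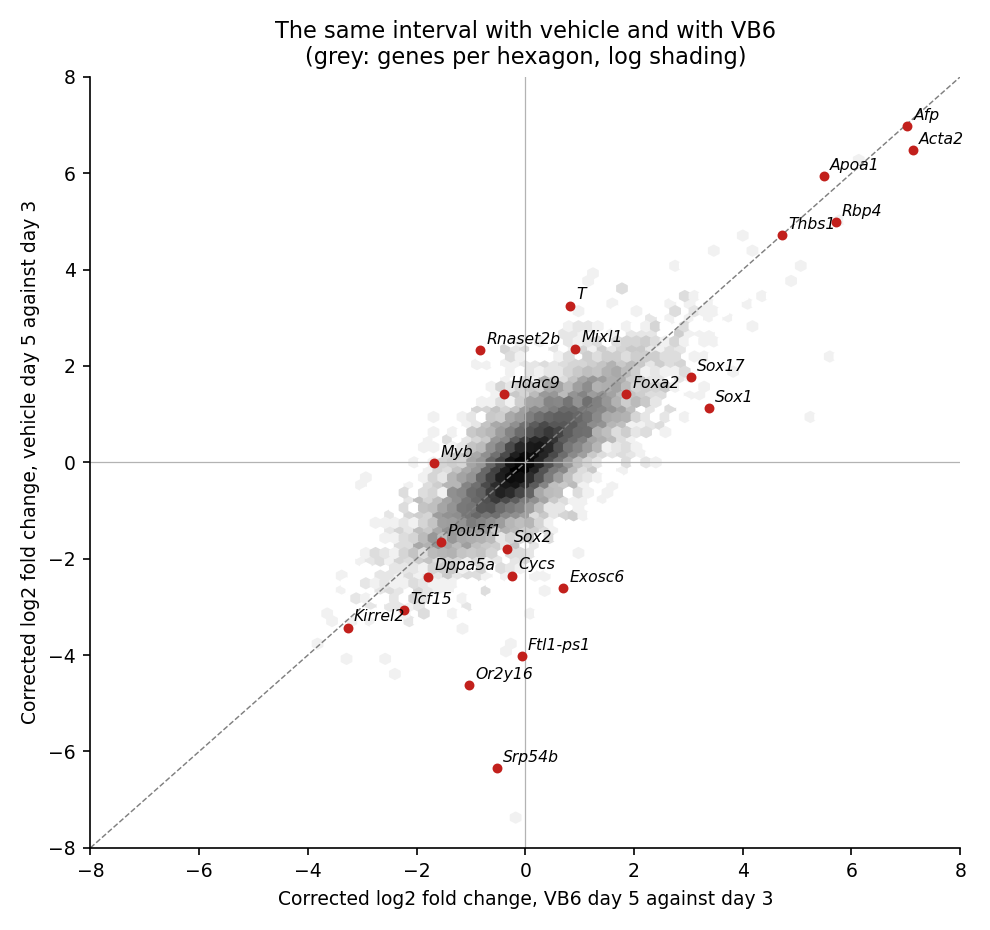
Corrected log2 fold change of day 5 against day 3 in vehicle (vertical) and in VB6 (horizontal), with grey hexagons for the number of genes and named genes in red; the dashed line marks equal change, and 29 genes lie outside the axes. Afp and Acta2 lie near the line, Sox1 and Sox17 below it, T, Mixl1 and Rnaset2b above it, and Srp54b and Ftl1-ps1 far below it.

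Afp rose in both arms. With 2.50, 1.83 and 2.13 CPM at day 3 and 301, 267 and 229 CPM at day 5 in VB6, it had an interval difference of 0.27 (adjusted p = 0.684), which was −0.06 with correction (adjusted p = 0.962). Ttr rose less in vehicle, with a difference of −0.75 (adjusted p = 0.000874, corrected −0.89). Sox17 rose by 1.20 in vehicle and 3.26 in VB6, a difference of −2.06 (adjusted p = 1.97e-08, corrected −1.27). Foxa2 rose by 0.92 and 2.22, a difference of −1.31 that was −0.43 with correction (adjusted p = 0.0749), so its call depended on the correction. Parietal endoderm and basement membrane genes had 19 of 25 differences called lower in vehicle and 0 higher, and with correction 14 and 0, with Sparc at −0.97 (corrected −0.59).

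Sox2 fell by 1.82 in vehicle and by 0.26 in VB6, where it went from 154 to 165 CPM to 130 to 141 CPM, a difference of −1.56 (adjusted p = 1.37e-07, corrected −1.46). Pou5f1 did not share this: its difference of −0.63 was −0.11 with correction (adjusted p = 0.437). Nanog fell in VB6 by 0.52 on the log2 scale, a difference of 0.72 (corrected 0.43). Mixl1 and T rose more in vehicle, by 1.53 (adjusted p = 0.00332, corrected 1.44) and 1.95 (adjusted p = 0.0288, corrected 2.42), and the call for T was lost when any of 6 single libraries was left out (vehicle day 3 replicate 2 or 3, vehicle day 5 replicate 2, VB6 day 3 replicate 1 or 2, VB6 day 5 replicate 3), with a difference of 1.59 to 2.0 and adjusted p from 0.0512 to 0.108. Eomes differed by 0.34 uncorrected (adjusted p = 0.0983) and 0.92 corrected (adjusted p = 2.67e-06). Sox1, a neural factor at about 1 to 2 CPM in vehicle, rose by 0.99 there and 3.79 in VB6 (difference −2.80, corrected −2.25). Cdkn1a rose by 0.32 and 1.54 (difference −1.22, corrected −0.85). For oxidative phosphorylation 56 of 76 differences were called lower in vehicle and 5 higher, and with correction 39 and 4.

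Several of the largest values in this comparison belong to genes that share sequence with another gene. Of the 12 strongest falls, 4 share over 50% of their transcript words of 31 bases with another annotated gene, as do 7 of the 12 genes with the largest interval differences and 2 of the 12 strongest rises. Apoc2, at 78.8%, shares them with a readthrough transcript over it. Srp54b, a copy of the signal recognition particle subunit with 89.9% shared, had 12.3 to 29.6 CPM at day 3 and 0.0576 to 0.702 CPM at day 5, while its copies Srp54a (57.8 to 65.1 CPM, then 91.8 to 104 CPM) and Srp54c (50.4 to 56.1 CPM, then 86.4 to 90.5 CPM) rose (these copies were chosen after the values were seen). The sum of the 3 genes was 130 to 138 CPM and then 183 to 191 CPM. Ftl1-ps1, a ferritin light chain copy with 76.7% shared, had 193 to 226 CPM and then 7.27 to 10.9 CPM, while the family sum was 511 to 633 CPM and then 414 to 524 CPM, ranges that overlap. Erhrt-ps, a copy of Erh with 95.5% shared, held 1142 counts over the day 3 libraries and 6 at day 5.

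These copies were low again in VB6 at day 7, the other group with short implied fragments (261.1 to 275.8 nt). There Srp54b had 0.159 to 0.964 CPM, Ftl1-ps1 2.77 to 4.44 CPM and Erhrt-ps no count, while the means in the other 5 groups were 19 to 35.5 CPM for Srp54b, 129 to 232 CPM for Ftl1-ps1 and 4.08 to 21.8 CPM for Erhrt-ps. The untreated cells, whose implied fragments were 304.5 to 312.5 nt, had 0 to 6.37 CPM of Erhrt-ps, so at least 1 of their libraries held none. Or2y16, an olfactory receptor gene with 27.8% shared words, had 284 to 312 CPM at vehicle day 3, 10.7 to 20.6 CPM at vehicle day 5 and 15.5 to 24.9 CPM at VB6 day 7, and 44.5 to 342 CPM over the libraries of the other groups. How the reads of such copies were divided by the counting, and the part of fragment length in it, were not tested, so the values of these genes are uncertain.

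**Figure D5:**
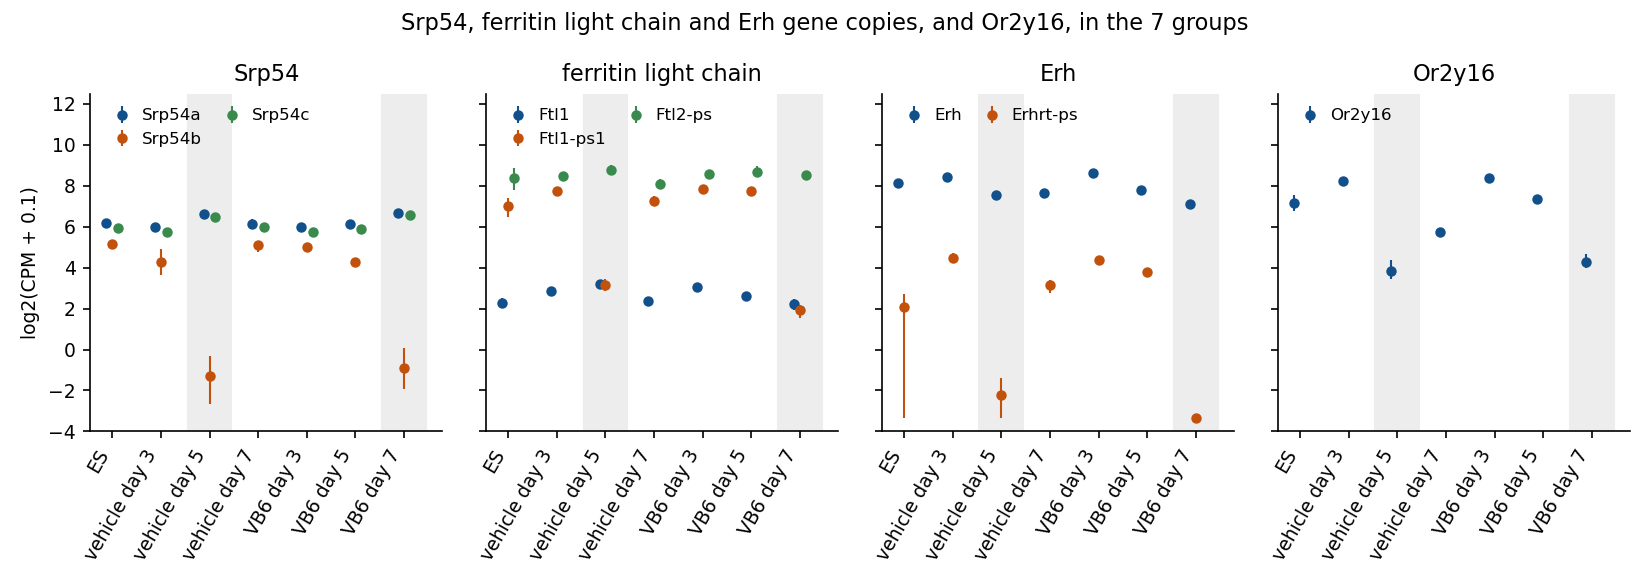
Level, as log2(CPM + 0.1), of Srp54, ferritin light chain and Erh copies and of Or2y16 in the 7 groups; points are means of 3 libraries, bars run from the lowest to the highest library, and grey bands mark vehicle day 5 and VB6 day 7. The means of Srp54b, Ftl1-ps1, Erhrt-ps and Or2y16 are lowest in the grey bands.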

How the data were processed

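RNA of 21 libraries was sequenced, of which the 6 vehicle libraries of days 3 and 5 are compared here. Labels give TRIzol total RNA but also small RNA enrichment, so library preparation is uncertain. The authors deposited expected counts (estimated counts per gene, not normalized), and TPM and FPKM per gene. The build was mm10, per the submitters' processing notes; the aligner, counter and annotation were not given in the sources used here. GC content and positions came from GENCODE M21.

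Expected counts were rounded to whole numbers (the test had been planned for counts and was kept). CPM values were computed from the authors' deposited counts with TMM factors. Genes passing filterByExpr over 7 groups were tested with edgeR 4.0.16 (quasi-likelihood, robust, R 4.3.3) over all 21 libraries with group means, Benjamini-Hochberg adjusted over all 18901 genes, called under 0.05. SE values derive from the log2 fold change and its F statistic. The correction was a robust spline trend in each library on GC content and effective length (5 degrees of freedom each), over genes averaging at least 1 CPM, and entered as an offset. Length was derived from counts and the deposited FPKM.

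Libraries held 15882380 to 21629730 expected counts, so 3 counts, the floor used, equal 0.158 to 0.181 CPM in the vehicle libraries. Genes were named by rule: the 12 highest and 12 lowest by the smaller of both fits' changes (protein-coding, mean CPM of at least 5, no overlap), up to 4 members per list with the smallest p and its extremes, 25 chosen genes, the 6 highest and 6 lowest interval differences, and 6 genes called in opposite directions. The members, the 50 gene lists and the tests were chosen with earlier results of these data known. Lists are described by counts and medians with no test. Alternatives were DESeq2 1.42.0, its size factors, other filters, GC or length alone, a replicate block, only the libraries compared, limma 3.58.1 on log2(TPM + 1), and leaving out each library. Both fits were also run on simulated counts, without a trend and with the trend fitted to the vehicle day 5 libraries. The correction used the same form of trend, so those runs do not cover a day effect that follows GC content or length.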

Additional observations from a re-analysis of the deposited data

Results flagged for a closer look

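Each value here is a difference between the vehicle and the VB6 interval (day 5 minus day 3 in vehicle, less the same in VB6, on the log2 scale) that the interaction test called in both fits; the corrected value follows in brackets. Among genes of few shared sequences, Hdac9, a histone deacetylase, differed by 1.99 (1.81), Myb, a transcription factor of blood progenitors, by 2.03 (1.67) and Mcoln3, a lysosomal calcium channel, by 1.39 (1.43). On the TPM scale the difference of Mcoln3 was 0.71 and its call was lost (adjusted p = 0.074 in limma). Hdac9 went from 2.77, 2.41 and 2.63 CPM to 7.83, 8.70 and 9.34 CPM in vehicle. Myb stood at 0.35 in vehicle (corrected −0.01; the uncorrected call was lost without replicate 1 of day 3, at 0.27, and without replicate 2 of day 5, at 0.31) and fell by 1.67 in VB6. Sox1 differed by −2.80 (−2.25), Sox2 by −1.56 (−1.46), Sox17 by −2.06 (−1.27), T by 1.95 (2.42) and Mixl1 by 1.53 (1.44).

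The other flagged genes share over 50% of their transcript words of 31 bases with another gene, apart from Or2y16 at 27.8%, and how their reads were divided is uncertain. Rnaset2b, a ribonuclease copy, differed by 3.01 (3.16), the Ptp4a1 copy ENSMUSG00000026064 by 2.46 (1.74) and Taf9, which overlaps Ak6, by 1.51 (1.45). Erhrt-ps differed by −6.94 (−7.07), Srp54b by −5.16 (−5.83), Ftl1-ps1 by −4.51 (−3.95), Or2y16 by −3.38 (−3.58) and Exosc6, which overlaps a tRNA synthetase gene, by −4.67 (−3.30). For Erhrt-ps, Srp54b and Exosc6 the vehicle day 5 libraries include counts at or under the floor, so these fitted values depend on the prior count.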

How the results depend on the processing

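The vehicle count of 12305 called genes stayed within 1.5 times under every alternative run, from 10678 with a stricter filter on low counts to 12360 with none, with 11943 on the TPM scale and 12010 with DESeq2. Tested only on the genes that have both properties, an alternative chosen after seeing the data, it was 11689. Without single libraries it was 11473 to 11736, the VB6 count 9705 to 9968 and the interaction count 8366 to 8903. The interaction count of 9025 moved to 5180 with the GC content and length correction, to 5136 with that correction and the replicate block, and to 5067 with GC content alone. On the TPM scale 71.3% of vehicle calls were higher against 49%, 67.6% of VB6 calls against 53.1%, and 63% of interaction calls against 43.7%. Counts of list members called higher or lower in vehicle were less stable. On the TPM scale 40 of them moved by over 1.5 times and 60 did not, and with the GC content and length correction 15 moved and 85 did not.

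Deviations of same-numbered libraries correlated weakly, at 0.025, −0.076 and 0.02 in vehicle and at 0.032, 0.057 and 0.059 in VB6. Between libraries of different numbers the values ran from −0.089 to 0.077 in vehicle and from −0.056 to 0.011 in VB6. Such small values cannot show if a replicate number marks a shared culture or batch. With the replicate number as a block the counts were 12244 for vehicle, 10497 for VB6, 8973 for the interaction and 8774 for genes called in 1 direction by both fits (8822 without).

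Named genes that changed sign, with the cause not tested, were as follows. With the GC content and length correction, and with the replicate block added to it, Nanog stood at −0.05 in both, H1f10 at 0.54, Csf2ra at 0.49, Pgls at 0.46, Ypel3 at 0.52, Dpm3 at 0.41, mt-Atp8 at −0.44 and −0.43, and Myb at −0.01 and 0.00. With GC content alone Nanog was at −0.10, Ndufv2 at −0.09, H1f10 at 0.39, Csf2ra at 0.26, Pgls at 0.15 and Ypel3 at 0.22. With length alone Otx2 was at 0.00, Dpm3 at 0.12 and mt-Atp8 at −0.26. On the TPM scale Otx2 was at 0.15, Ldha at 0.33, Csf2ra at 0.50 and mt-Atp8 at −0.81. Gene level tables cannot show how reads were divided among copies, and genes near 3 counts per library have no precise fold.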
